A study of Mus musculus with 6 samples.

Results

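The nuclear pore genes were taken from the array by name. Members were the genes whose platform symbol began with Nup followed by a digit or the letter l, together with Ranbp2, Pom121, Ndc1, Aaas, Seh1l, Sec13 and Rae1, and the probe set that was brightest on average over all arrays stood for each gene. This gave 29 of the 19938 named genes tested. Tpr, which the same rule names, and Nup35 were not analysed here. The study measured total RNA of mouse fetal liver at E14.5 in 3 Tmod3-/- embryos (KO), whose livers the submitters describe as small and whose phenotype they give as anemia, and in 3 Tmod3+/+ embryos (WT), called normal. All 6 embryos were of the C57BL/6J strain, and the design text describes them as independent. Tmod3 encodes tropomodulin 3, a capping protein of actin filament pointed ends. The labels and design text do not say which part of the gene the knockout removes.

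Nuclear pores are large channels through the nuclear envelope, built from many copies of nucleoporins. A Y-shaped complex forms the outer rings, an inner ring lines the membrane, and nucleoporins rich in phenylalanine-glycine (FG) repeats fill the channel and bind the import and export receptors that carry cargo through it. Filaments reach into the cytoplasm and a basket reaches into the nucleus. Fetal liver at this stage consists largely of dividing erythroblasts, whose nuclei condense and are expelled as the cells mature.

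Each RNA was measured on 1 Affymetrix MoGene 1.0 ST array, and levels below are the deposited values, read as log2. The medians of the 6 arrays lay between 1.36 and 1.43, so a level near or below those values is near the floor of the measurement. The Tmod3 probe set read 1.32, 2.36 and 1.30 in KO and 4.49, 4.78 and 4.90 in WT, so each array matched its genotype label. All 10 measured erythroid markers and all 11 hepatoblast and hepatocyte markers had mean levels above the array medians. Expression in whole liver cannot tell fewer cells of a type from less RNA per cell. Transcripts of the Y-linked gene Eif2s3y read 4.21 in KO replicate 2 and between 0.90 and 1.30 on the other 5 arrays. Those of Xist, which female cells make, read 1.03 in KO replicate 2 and between 5.79 and 7.67 on the other 5. By these transcripts KO replicate 2 was male and the other 5 embryos were female, so only the KO group held a male embryo. The part of sex in the values below was not tested. The 2545 genes whose mean level reached 3 had a median log2 fold change (KO minus WT) of -0.25, and the median over all genes was 0.01. Among those 2545 genes, WT replicate 1 was the lowest of the WT arrays for 77.2%.

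No nuclear pore gene passed the threshold in KO against WT liver. With limma, 0 of the 29 members had an adjusted p under 0.05, against 0.015% of all genes tested, and the smallest adjusted p among members was 0.218, for Nup205. At an unadjusted p under 0.05, 5 members were lower in KO liver (Nup205, Nup43, Nup54, Nup50 and Nup107), or 17.2% of members, against 6.44% of all genes. By the same rule 1 member was higher (Nup62cl), or 3.45%, against 2.59% of all genes. Among the 13 members whose mean level reached 3, 4 were lower at an unadjusted p under 0.05, which is 30.8%, close to the 26.6% of all genes at that level. In total 22 of the 29 fold changes (75.9%) were below 0, against 48.4% over all genes, with a median of -0.16 on the log2 scale. The count below 0 was 18 of 29 after renewed quantile normalization and 17 of 29 without WT replicate 3. As deposited, the fold change was below 0 for 11 of the 13 members with mean levels of 3 and above (84.6%). The share was 80.6% of all genes at such levels. The 3 KO arrays lay wholly below the 3 WT arrays for 5 members (Nup205, Nup43, Nup54, Nup50 and Seh1l), or 17.2%, against 7.1% of all genes. They lay wholly above for 1 member (Nup62cl), or 3.45%, against 6.14% of all genes. These shares of all genes cover every level and were not matched to the levels of the members.

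The size of the median depended on how the arrays were scaled. On both scales that follow it stayed below 0 by little. The SD between arrays of the median member level, pooled over genotypes, was 0.17 as deposited. After the 6 arrays were quantile normalized again, the median over members was -0.03, and after a level-dependent offset was removed from each array, an alternative chosen after seeing the data, it was -0.01, while the medians over all genes were -0.01 and 0.00. On the quantile scale 2 members were lower at an unadjusted p under 0.05 (Nup205 and Nup43), against 4.66% of all genes, and 3 were higher (Nup62cl, Rae1 and Nup160), against 3.05%. With the level-dependent offset removed, the lower members were again Nup205 and Nup43, against 4.08% of all genes, and the higher ones were Nup62cl, Rae1, Nup160 and Aaas, against 3.75%. On neither scale did a member pass over all genes (limma).

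**Figure D1:**
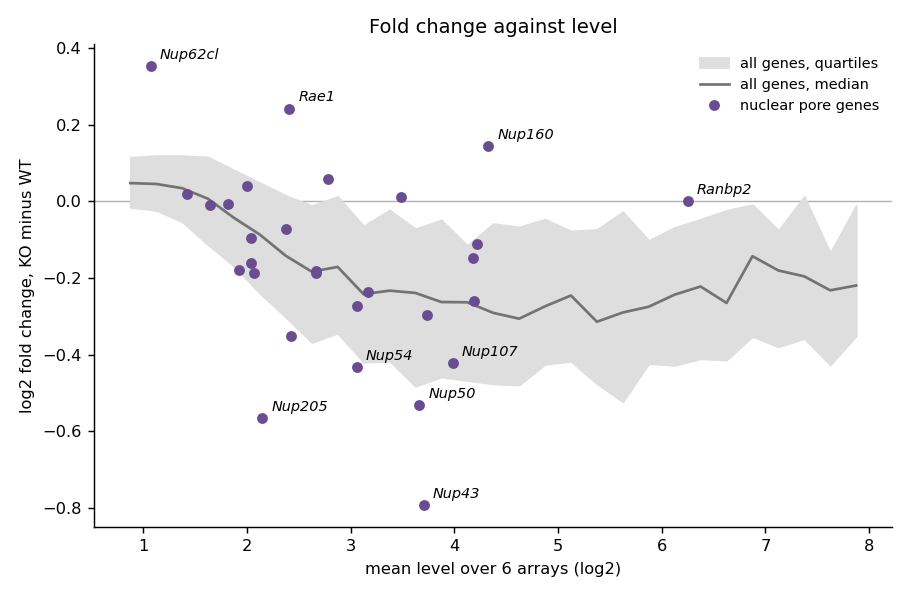
Log2 fold change of KO minus WT (vertical axis) against the mean level over the 6 arrays (log2, horizontal axis). Purple points are the 29 nuclear pore genes, the grey line is the median of all genes in steps of level and the grey band runs from their lower to their upper quartile. The line lies near 0 at low levels and between -0.2 and -0.3 over most of the range above a level of 3. Nup43 and Nup205 lie farthest below the band, and Nup62cl, Rae1 and Nup160 farthest above it.

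The promoters of the members that stood out at an unadjusted p under 0.05 are shown because these genes carry the differences described below. They are 300 bases around the start of each gene, from RefSeq, build GRCm38.p6, printed 5′ to 3′ on the gene's own strand. The table held a promoter for 25 of the 29 members, and not for Nup43, Seh1l, Nup85 or Nup210l. Capitals mark matches to 7 short motifs searched on both strands, namely the NF-Y box CCAAT, the ETS core CCGGAAG, the NRF1 motif (GCGCA and GCGC with any 1 base N between them), the CHR element TTTGAA, the E2F motif TTCCCGCC, the E-box CACGTG and the GATA motif AGATAA.
Nup205 (chr6:35177366-35177665, plus strand): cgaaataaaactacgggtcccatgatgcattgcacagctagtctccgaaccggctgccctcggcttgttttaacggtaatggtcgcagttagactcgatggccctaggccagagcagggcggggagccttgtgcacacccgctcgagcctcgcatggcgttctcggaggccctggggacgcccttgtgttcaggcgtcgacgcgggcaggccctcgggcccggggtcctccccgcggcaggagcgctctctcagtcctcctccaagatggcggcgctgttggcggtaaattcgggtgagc
Nup54 (chr5:92435150-92435449, minus strand): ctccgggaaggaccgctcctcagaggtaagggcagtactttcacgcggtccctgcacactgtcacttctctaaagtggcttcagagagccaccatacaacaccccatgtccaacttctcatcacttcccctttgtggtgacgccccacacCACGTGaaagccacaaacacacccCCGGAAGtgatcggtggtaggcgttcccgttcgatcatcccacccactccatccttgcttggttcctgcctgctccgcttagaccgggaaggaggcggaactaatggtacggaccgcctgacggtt
Nup50 (chr15:84923178-84923477, plus strand): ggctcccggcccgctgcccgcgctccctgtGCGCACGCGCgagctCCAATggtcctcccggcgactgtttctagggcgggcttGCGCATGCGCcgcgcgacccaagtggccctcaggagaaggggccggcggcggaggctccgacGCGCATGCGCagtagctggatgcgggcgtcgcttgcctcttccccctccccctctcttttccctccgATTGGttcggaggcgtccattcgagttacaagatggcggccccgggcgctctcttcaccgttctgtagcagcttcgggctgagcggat
Nup107 (chr10:117792656-117792955, minus strand): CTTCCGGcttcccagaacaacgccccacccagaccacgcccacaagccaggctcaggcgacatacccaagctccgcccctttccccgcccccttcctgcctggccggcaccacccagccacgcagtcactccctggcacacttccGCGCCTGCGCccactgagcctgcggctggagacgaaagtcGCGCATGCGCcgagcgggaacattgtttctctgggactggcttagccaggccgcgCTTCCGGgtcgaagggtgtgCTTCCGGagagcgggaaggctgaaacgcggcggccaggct
Nup62cl (chrX:140062519-140062818, minus strand): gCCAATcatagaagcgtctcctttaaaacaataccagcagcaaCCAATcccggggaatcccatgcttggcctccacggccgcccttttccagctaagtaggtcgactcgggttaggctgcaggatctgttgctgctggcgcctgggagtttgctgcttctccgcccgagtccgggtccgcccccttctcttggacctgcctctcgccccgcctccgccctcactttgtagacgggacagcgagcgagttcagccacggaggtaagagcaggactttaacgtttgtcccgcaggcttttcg

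The Nup205 promoter held none of the 7 motifs in this window. That of Nup50 held 3 NRF1 matches and 2 CCAAT boxes, and that of Nup107 held 3 ETS cores and 2 NRF1 matches. Nup54 had 1 ETS core and 1 E-box, and Nup62cl had 2 CCAAT boxes. Over the first listed promoter of the 25 members, 7 held an ETS core (28.0%), where 8.86% of all 32851 promoters of that length did. The shares over all promoters count every listed promoter, and some genes have more than 1, so the units differ. An NRF1 match was present in 4 members (16.0%), against 4.6% of all promoters, an E-box in 4 (16.0%), against 7.15%, and an E2F match in 2 (8.0%), against 2.19%. The CCAAT box was found in 10 (40.0%), against 37.4%, the CHR element in 5 (20.0%), against 17.9%, and the GATA motif in 1 (4.0%), against 11.2%. The member promoters were richer in G and C, with a median of 63.7% against 52.7% over all promoters, and the part of base composition in these shares was not tested. A match is a run of letters and not a measured binding site. The 7 members with an ETS core were Nup54 (log2 fold change -0.43), Nup107 (-0.42), Nup155 (-0.24), Sec13 (-0.19), Nup37 (-0.19), Aaas (+0.06) and Rae1 (+0.24), none of which passed the threshold.

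The inner ring holds the pore scaffold against the membrane, and its member Nup205 had the smallest p of the 29. Nup205 read 1.85, 1.86 and 1.89 in KO and 2.24, 2.44 and 2.62 in WT liver. The KO arrays differed by less than 0.05 from each other and all lay below the lowest WT array. The means were 1.87 ± 0.02 in KO and 2.43 ± 0.19 in WT (SD, n = 3 each), giving a log2 fold change of -0.57 (SE 0.12, 95% interval -0.84 to -0.29, limma adjusted p = 0.218). It was -0.49 on the quantile scale, again without overlap. Nup188, which is related to Nup205 and takes a similar place in the ring, had a fold change of -0.01 with an interval of -0.27 to 0.25. Nup93, which links the inner ring to the channel, had -0.35, and Nup155, which contacts the membrane, had -0.24, and the groups overlapped for both. Nup155 read 2.84, 3.11 and 3.19 in KO and 2.56, 3.67 and 3.63 in WT, so WT replicate 1 was the lowest of all 6 arrays. Without WT replicate 1 the Nup155 value was -0.60.

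Among the 8 genes listed for the Y complex, 7 fold changes were below 0. Nup98 (+0.01), whose gene also encodes the Y complex protein Nup96, is counted with the central channel. Nup43, a propeller protein of the Y, had the most negative value of all members. It read 3.36, 3.40 and 3.16 in KO and 3.46, 4.32 and 4.53 in WT liver. The groups did not overlap, but WT replicate 1 lay close to the KO arrays and apart from the other WT arrays. The means were 3.31 ± 0.13 in KO and 4.10 ± 0.57 in WT (SD, n = 3 each), giving a log2 fold change of -0.79 (SE 0.25, 95% interval -1.38 to -0.21, limma adjusted p = 0.408). Without WT replicate 1 it was -1.12 and passed (limma adjusted p = 0.0355), the only member to do so when any 1 array was left out. Calls rose over all genes in that fit, with 11.2% lower at an unadjusted p under 0.05, against 6.44% with all 6 arrays. The share of all genes past the adjusted threshold in that fit is not given here. Over the 15 alternatives for Nup43 the limma adjusted p ran from 0.0355 to 0.904. On the quantile scale its fold change was -0.57. Nup107, a core subunit on the stem of the Y, read 3.85, 3.62 and 3.84 in KO and 3.80, 4.43 and 4.35 in WT. WT replicate 1 lay among the KO arrays, so the groups overlapped. Its log2 fold change was -0.42 (SE 0.17, limma adjusted p = 0.528), and -0.18 on the quantile scale.

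The other 6 genes listed for the Y complex differed less. Nup133, the outermost stem subunit, had -0.27, Sec13 -0.19, Nup37 -0.19, Seh1l -0.18 and Nup85 -0.16, with adjusted p from 0.69 to 0.865 (limma). Seh1l read 2.46, 2.67 and 2.59 in KO and 2.71, 2.83 and 2.72 in WT, a small difference without overlap, and on the quantile scale its fold change was -0.04 and the groups overlapped. Nup160 had a positive value, +0.14 as deposited and +0.38 on the quantile scale, where its unadjusted p was 0.0353 in the limma fit and its groups still overlapped. Without WT replicate 1 the deposited value turned to -0.02, and without KO replicate 1 or WT replicate 3 it was +0.29 or +0.32. Sec13 and Seh1l also serve outside the pore. Sec13 is part of the COPII coat of vesicles that leave the endoplasmic reticulum. Its 10 coat partners had a median log2 fold change of -0.28, with 3 of them lower at an unadjusted p under 0.05 (Sec23a -0.64, Sec23b -0.45 and Sar1b -0.69) and 0 past the threshold. That is 30.0% of the partners, against 6.44% of all genes. Of the 3 partners whose mean level reached 3, 1 was lower by that rule, against 26.6% of all genes at such levels. The median of the 10 partners was -0.43 without WT replicate 1 and -0.17 without WT replicate 2 or 3. Both proteins belong to GATOR2, a regulator of amino acid sensing by mTORC1, and its other 3 genes had Mios -0.16, Wdr24 -0.07 and Wdr59 +0.23, with 0 at an unadjusted p under 0.05.

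In the central channel Nup54, an FG nucleoporin, read 2.74, 3.05 and 2.74 in KO and 3.17, 3.53 and 3.13 in WT liver. The groups did not overlap, with KO replicate 2 nearest to the WT arrays. The log2 fold change was -0.43 (SE 0.15, 95% interval -0.77 to -0.10, limma adjusted p = 0.432). On the quantile scale it was -0.26 and the groups overlapped. The other subunits of the same channel complex were Nup62, with -0.30, and Nupl1 (also called Nup58), with -0.15, and their groups overlapped. Nupl1 changed sign on the quantile scale, to +0.11. Nup98, whose gene encodes both the FG nucleoporin Nup98 and the Y complex protein Nup96, had +0.01 with an interval from -0.34 to 0.36.

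Nup62cl, an X-linked gene named for its likeness to Nup62, was the member with the highest fold change. It read 1.35, 1.19 and 1.21 in KO and 0.85, 0.88 and 0.97 in WT liver. All 6 values lay below the array medians, at the dim end of the scale, so the fold change of +0.35 (standard error 0.10, limma adjusted p = 0.356) is a difference between low signals. Without KO replicate 2, the array with Y-linked transcripts, it was +0.38. On the quantile scale it was +0.31, without overlap.

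**Figure D2:**
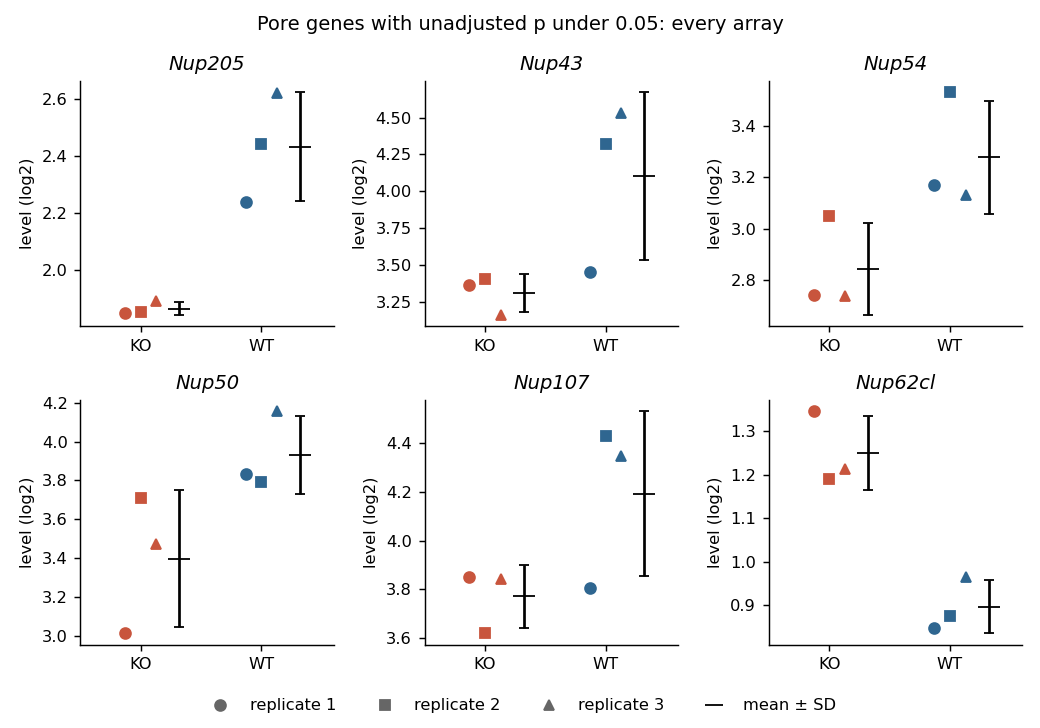
Levels (log2, vertical axis, with its own range in each panel) of the 6 members with an unadjusted p under 0.05, KO on the left and WT on the right. Each point is 1 array, the shape gives its replicate number and the bar is the mean ± SD of 3 arrays. WT replicate 1 lies nearest to the KO arrays for Nup205 and Nup43, and among them for Nup107. The groups do not overlap for the other 5 genes.

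At the nuclear basket Nup50, which binds importins and helps release their cargo, read 3.01, 3.71 and 3.47 in KO and 3.83, 3.79 and 4.16 in WT liver. The groups were separated by less than 0.1, between KO replicate 2 and WT replicate 2. The log2 fold change was -0.53 (SE 0.19, 95% interval -0.96 to -0.10, limma adjusted p = 0.453). On the quantile scale it was -0.31 and the groups overlapped. Without KO replicate 1, the lowest array, it was -0.34, and the unadjusted p in the limma fit was 0.0665. Nup153, the FG nucleoporin at the base of the basket, had -0.11 as deposited and +0.12 on the quantile scale, with overlap on both.

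None of the 6 genes of the cytoplasmic side had an unadjusted p under 0.05 as deposited. Ranbp2, the largest filament protein, which binds Ran and acts as a SUMO ligase, read 6.22, 6.16 and 6.37 in KO and 6.05, 6.50 and 6.21 in WT, with a log2 fold change of 0.00 and an interval from -0.31 to 0.31. Nup88 had -0.26 and its partner Nup214, an FG nucleoporin, had -0.07. Nupl2 (also called Nup42), a docking site for the mRNA export machinery, had -0.10. Its KO replicate 1 (2.34) lay above the other KO arrays (1.79 and 1.85), and without that array the fold change was -0.27, with an unadjusted p of 0.0404 in the limma fit. Rae1, an mRNA export factor that binds Nup98, read 2.41, 2.44 and 2.74 in KO and 2.07, 2.32 and 2.47 in WT liver. As deposited its groups overlapped, and the log2 fold change was +0.24 (SE 0.14, limma adjusted p = 0.698). On the quantile scale it was +0.37 without overlap. The dimmer probe set of Rae1 had +0.13. Aaas, which encodes aladin, had +0.06 as deposited and +0.23 on the quantile scale, where its groups did not overlap.

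The membrane proteins that anchor the pore showed small differences. Ndc1 had +0.04, Pom121 -0.01 and Nup210 -0.18. Nup210 had overlapping groups as deposited, and -0.15 without overlap on the quantile scale. Nup210l, a relative of Nup210, had +0.02, with a mean level near the array medians. Its 9 probe sets had fold changes from -0.12 to +0.16. Each of the 4 genes had an interval within -0.5 to 0.5. Over all 29 members, the 95% interval included 0 for 23 and lay within -1 to 1 for 28, and Nup43 was the exception.

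**Figure D3:**
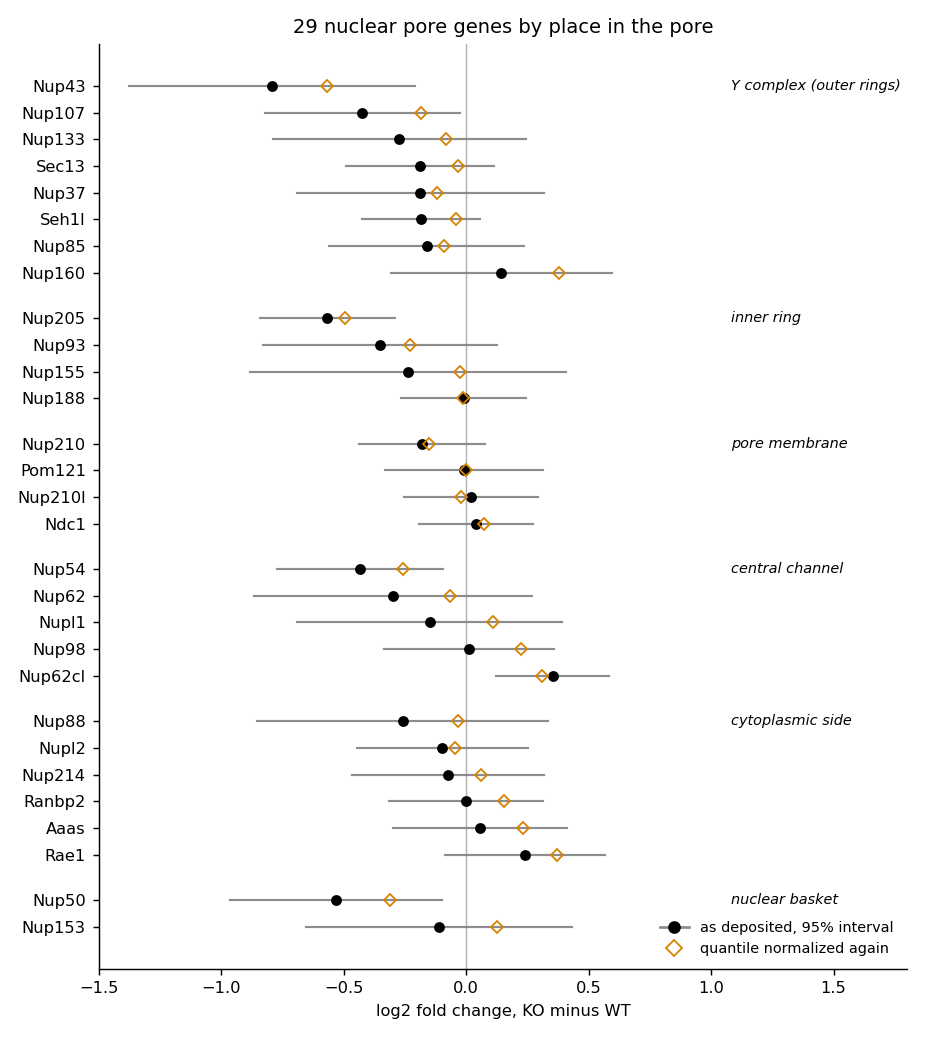
Log2 fold change of KO minus WT (horizontal axis) of the 29 nuclear pore genes, grouped by place in the pore. Black points are the deposited values with their 95% interval (limma), and open diamonds are the values after quantile normalization was repeated. The diamonds lie to the right of the points for most genes, and those of Nup205 and Nup43 stay below -0.4.

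By place in the pore, the mean levels of the genotypes overlapped in each of the 6 groups. For the Y complex the mean over the 8 genes listed for it was 2.86, 3.02 and 2.93 in KO and 2.86, 3.26 and 3.46 in WT liver. For the inner ring it was 2.09, 2.21 and 2.30 in KO and 2.16, 2.60 and 2.71 in WT. In both, WT replicate 1 lay at the level of the KO arrays and the other WT arrays lay above them. Over all 29 members the mean was 2.74, 2.91 and 2.86 in KO and 2.74, 3.07 and 3.18 in WT. WT replicate 1 was the lowest WT array for 24 of the 29 members, against 38.5% of all genes and 77.2% of those whose mean level reached 3. KO replicate 1 was the lowest KO array for 17 members, against 31.3% and 31.5%. The median range over 3 arrays was 0.31 in KO and 0.45 in WT, and in 21 of 29 members the WT range was the larger. The fold change kept its sign whichever array was left out in 15 of the 29 members, 13 below 0 and 2 above it (Nup62cl and Rae1), and turned in sign without some 1 array in the other 14. The difference between the genotype means exceeded both ranges in 3 members, Nup205, Nup54 and Nup62cl. Without WT replicate 1, 9 members were lower at an unadjusted p under 0.05, against 11.2% of all genes in that fit (limma), and they were Nup43, Nup205, Nup107, Nup155, Nup62, Nup54, Nup50, Nup133 and Nup93. That 11.2% covers genes of every level. With all 6 arrays, 6.44% of all genes and 26.6% of those whose mean level reached 3 were lower by that rule. The share at such levels is not given for the fit without WT replicate 1.

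**Figure D4:**
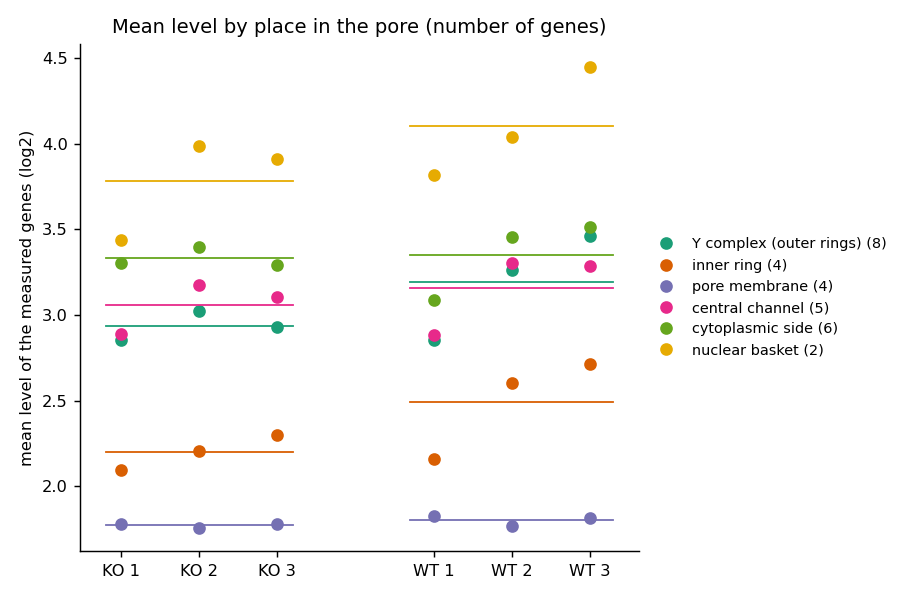
Mean level (log2, vertical axis) of the measured genes at each place in the pore, for every array, with the 3 KO arrays on the left and the 3 WT arrays on the right. Points are arrays and lines are the means of 3 arrays. WT replicate 1 lies below the other WT arrays for all places except the pore membrane, whose means lie between 1.76 and 1.83 on all arrays.

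Other genes of nuclear transport are given from lists chosen by function. Of 23 importin and exportin genes, 22 fold changes were below 0, 11 were lower at an unadjusted p under 0.05 and 0 passed the threshold (limma), with a median of -0.22. These are 95.7% and 47.8% of the list, against 48.4% and 6.44% of all genes. For the 11 of them whose mean level reached 3, 8 were lower by that rule and the median was -0.49, against 26.6% and -0.25 over all genes at such levels. The median of the whole list was -0.37 without WT replicate 1 and -0.14 without WT replicate 2. They included Xpo7, an exportin active in erythroid cells (-1.15), Xpo4 (-0.58) and Kpna1 (-0.54). Of 6 genes of the Ran cycle, which gives transport its direction, Rangap1 (-0.32) and Ranbp1 (-0.38) were lower at an unadjusted p under 0.05 and the median was +0.06. Of 15 mRNA export genes 3 were lower by that rule, Thoc3 (-0.33), Thoc7 (-0.31) and Nxf1 (-0.43), and the median was -0.16. Among 8 genes of pore assembly and of proteases at the pore, Senp1 (-0.50) was lower by that rule, while Ahctf1, which recruits the Y complex to chromatin after mitosis, had -0.48 with overlapping groups. Of 14 genes of the lamina and nuclear envelope 0 had an unadjusted p under 0.05, and their median was -0.07. Over all genes the median was 0.01 and 6.44% were lower by that rule, while genes whose mean level reached 3 had -0.25 and 26.6%.

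Markers of the cell types that fetal liver can hold were read on the same arrays. The 17 markers of cycling cells had a median log2 fold change of -0.34, with 9 lower at an unadjusted p under 0.05 (52.9%, against 6.44% of all genes), and their mean level was 4.89 to 5.04 in KO and 5.19 to 5.47 in WT. Of the 15 whose mean level reached 3, 8 were lower by that rule, against 26.6% of all genes at such levels. The 10 erythroid markers had a median of -0.38, with 5 of the 10 lower and a mean level of 4.38 to 4.74 in KO and 4.72 to 5.13 in WT. The list of 11 markers of hepatoblasts and hepatocytes had a median of -0.60, with 5 lower (45.5%) and a mean level of 6.74, 6.78 and 5.86 in KO and 6.83, 7.08 and 7.09 in WT. KO replicate 3 stood apart there, and without it the median was -0.25. Of the 10 hepatoblast and hepatocyte markers whose mean level reached 3, 5 were lower, against the same 26.6%. The erythroid median was -0.63 without WT replicate 1 and -0.59 without KO replicate 2. The 9 macrophage markers, 4 of them with means below the highest array median, had a median of -0.29 with 1 lower. The 8 endothelial markers, 4 of them that dim, had +0.12 with 1 higher, and the 7 stellate and mesenchymal markers had +0.16 with 1 higher. The median was -0.20 for 4 megakaryocyte genes, with 1 lower, -0.02 for 7 neutrophil and myeloid genes, with 0, and +0.09 for 6 B lymphoid genes, with 1 lower. Some of these medians rested on 1 array: that of macrophages was -0.14 without WT replicate 3, that of megakaryocytes -0.46 without KO replicate 2 and -0.05 without KO replicate 3, and the mesenchymal one +0.04 without KO replicate 3. No marker passed over all genes (limma). Their part in the values of the nuclear pore genes was not tested.

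Some pore genes start close to another gene on the opposite strand. In the RefSeq promoter table this held for 9 members within 1000 bases, and 6 of those neighbours were measured. Nup37 and Parpbp start 51 bases apart, and Parpbp, named here because of its measured value, read 2.96 in KO and 3.54 in WT, a log2 fold change of -0.58 (limma adjusted p = 0.408), beside -0.19 for Nup37. Nup98 and Pgap2 start 7 bases apart and had +0.01 and -0.01. The other measured pairs were Nup62 (-0.30) with Atf5 (+0.16), Nup88 (-0.26) with Rpain (-0.10), Nup188 (-0.01) with Dolk (-0.10) and Nup62cl (+0.35) with Dnaaf6b (+0.19), and each of these neighbours had an unadjusted p above 0.05.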

How the data were processed

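Total RNA of 6 fetal livers was hybridised to 1 Affymetrix MoGene 1.0 ST array each. The deposited table holds log2 values for 28853 probe sets, which the authors made with RMA (no version stated), per the submitters' processing notes. The log base was read from the range of the values, since no label names it. The upper parts of the arrays differ, so whether a full quantile step was applied is not known. Probe sets with 1 gene symbol in the platform annotation (21789) were kept, 1621 with several symbols and 5443 with none were left out, and the brightest probe set stood for each gene. Genotypes were compared in R 4.3.3 by limma 3.58.1 (lmFit, eBayes, two-sided) over 19938 genes with Benjamini-Hochberg adjustment at 0.05. No filter on dim genes was applied. Fits were tested on simulated data in which each value varied independently. Those data held no shift shared by many genes on 1 array, so the test does not cover such a shift. Arrays have no read depth, and their number limits the precision.

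The members, gene lists, markers and motifs were chosen with earlier results of these data known. All members were named, and values in every array were given for Tmod3, for members with an unadjusted p under 0.05, and for the member with the highest mean level (Ranbp2). The member with the lowest mean level was Nup62cl. Array values of Nup155, Seh1l and Rae1 were added after their values were seen. Promoters came from RefSeq, build GRCm38.p6. Over all probe sets the arrays correlated between 0.974 and 0.99, and none duplicated another.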

Additional observations from a re-analysis of the deposited data

How the results depend on the processing

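The count of 5 members lower at an unadjusted p under 0.05 became 2 after renewed quantile normalization, 3 with an intensity trend and robust fitting and 2 after removal of the level-dependent offset, an alternative chosen after seeing the data. It ranged from 2 to 9 when 1 array was left out: 3 without KO replicate 1, KO replicate 3 or WT replicate 3, 2 without WT replicate 2 and 9 without WT replicate 1. For all genes, 6.44% were lower as deposited. The share was 4.66% after quantile normalization, 4.98% with trend and robust fitting and 4.08% after removal of the offset. Without 1 array the share was 5.67% (KO replicate 1), 4.79% (KO replicate 3) or 4.46% (WT replicate 3). It was 3.95% without WT replicate 2 and 11.2% without WT replicate 1. The count of 1 higher member became 3 under quantile normalization, 4 after removal of the offset, and 0 among genes at or above the median level, where Nup62cl was not tested. It was 1 whichever array was left out. Of all genes, 2.59% were higher as deposited, 3.05% under quantile normalization and 3.75% after removal of the offset. Of genes at or above the median level 1.56% were higher. When 1 array was left out the share of all genes ran from 1.49% to 3.08%. The count past the adjusted threshold ranged from 0 to 1 when 1 array was left out, 1 being Nup43 without WT replicate 1, and was 0 under each other alternative. The share of all genes past that threshold without WT replicate 1 is not given here. The median fold change of members stayed below 0 in all 15 alternatives, from -0.29 without WT replicate 1 to -0.01 after removal of the offset. It was -0.11 without KO replicate 1, -0.11 without WT replicate 2 and -0.05 without WT replicate 3, and -0.03 under quantile normalization. Nup205 had an unadjusted p under 0.05 in 15 of 15 alternatives, with adjusted p from 0.0576 to 0.711, Nup43 in 14 of 15 (0.0355 to 0.904), Nup50 in 11 of 15, Nup54 in 9 of 15 and Nup107 in 5 of 15. Nup62cl had one in all 14 that tested it. The cause of these changes was not tested. The deviations of same-numbered KO and WT arrays correlated at 0.107, 0.057 and -0.105, and those of KO replicate 2 and WT replicate 3 at 0.186. With 3 arrays per group these values cannot settle whether the numbers pair the embryos. The design text describes the embryos as independent. With the replicate number as a block, 5 members were lower, 1 was higher, 0 passed over all genes and the median was -0.16, and Nup93 took the place of Nup107 among the lower members. In that fit 6.61% of all genes were lower and 2.36% higher.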
